A study of Homo sapiens with 6 samples.

Results

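The enzymes that make or use 2-oxoglutarate and 2-hydroxyglutarate were followed as 9 genes: IDH1, IDH2, IDH3A, IDH3B, IDH3G, D2HGDH, OGDH, DLST and GLUD1. They were taken by symbol from a table of 23710 gene symbols per library, and all 9 were present and passed the filter on low counts. The libraries came from K562, an established human line from a chronic myelogenous leukaemia. The treated group received 20 µM 3FM-dC together with 2 mM THU for 24 h, and the control group received DMSO, the solvent of both agents, for 24 h. Each group had 3 libraries, and all cells were grown in the same serum-containing medium at passages 13 to 16. The labels give 3FM-dC and THU only by these names, and no group received either agent alone, so their effects cannot be told apart. The series title concerns an activator of TET2, and the design asked how 3FM-dC alters gene expression.

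Isocitrate dehydrogenases turn isocitrate into 2-oxoglutarate, a citric acid cycle intermediate that the TET enzymes and many other dioxygenases consume as a co-substrate. IDH1 works in the cytosol and IDH2 in mitochondria, and both produce NADPH, whereas IDH3 is a mitochondrial NAD-linked enzyme built from the subunits encoded by IDH3A, IDH3B and IDH3G. OGDH and DLST encode components of the complex that carries 2-oxoglutarate on to succinyl-CoA, GLUD1 links it to glutamate, and D2HGDH oxidises D-2-hydroxyglutarate back to it. Altered forms of IDH1 and IDH2 in leukaemia make 2-hydroxyglutarate, which inhibits the TET enzymes.

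Libraries held between 18408826 and 22750278 counts in genes, and single members had between 308 and 3796 counts in a library. Reads in no annotated feature made up between 10.9% and 13.1% of each library, the highest share being in treated replicate 3. The erythroid markers fixed for K562 were all measured, and their summed level lay between 7001 and 7182 CPM (counts per 1000000 counts of a library, after scaling by TMM, a trimmed mean of gene ratios) in DMSO and between 3500.0 and 3689 CPM in treated cells. Among markers of other cells, the lymphoid genes summed to between 7.88 and 11.3 CPM with CD2 and MS4A1 at 0, and the fibroblast genes to at most 10.5 CPM. EPCAM, an epithelial surface gene, had 103 ± 0.708 CPM under DMSO and 62.1 ± 1.52 CPM in treated cells, while KRT5 and KRT14 were at 0. The part of these marker levels in the results was not tested. Nothing in the labels shows that replicates were separate cultures, so the p-values here weigh only library-to-library spread, part or all of which may be technical.

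To show the DNA in front of the genes that moved in opposite directions, stretches upstream of IDH1 and IDH2 are given beside those of 2 subunits of the NAD-linked enzyme, IDH3A and IDH3B. The sequences are from RefSeq, build GRCh38.p14, whereas the submitters' notes name hg19. RefSeq windows matched 8 of the 9 genes, all but OGDH, and the longest part of the 250 bases before the annotated start that no GENCODE exon covers was taken from each window and is printed 5′ to 3′ on the gene's strand. IDH1 has a pair of windows, and the stretch shown is from the one that holds a motif match, chosen after the matches were seen. The other IDH1 window, chr2:208254459-208254708, is free of exons over all 250 bases, holds no match and is not printed. The IDH1 stretch is chr2:208255134-208255246 on the minus strand and the IDH2 stretch is chr15:90100696-90100871 on the minus strand. The IDH3A stretch is chr15:78149112-78149320 on the plus strand and the IDH3B stretch is chr20:2664220-2664351 on the minus strand. Of the other members, D2HGDH lies on chromosome 2, GLUD1 on 10, DLST on 14 and IDH3G on X. Capitals mark a match to TGACNNNGC, the core of the antioxidant response element.
IDH1: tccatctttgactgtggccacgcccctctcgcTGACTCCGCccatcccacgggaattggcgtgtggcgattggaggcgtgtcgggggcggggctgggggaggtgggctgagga
IDH2: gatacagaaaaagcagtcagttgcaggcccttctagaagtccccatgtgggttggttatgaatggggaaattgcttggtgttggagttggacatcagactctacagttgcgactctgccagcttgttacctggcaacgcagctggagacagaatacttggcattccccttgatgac
IDH3A: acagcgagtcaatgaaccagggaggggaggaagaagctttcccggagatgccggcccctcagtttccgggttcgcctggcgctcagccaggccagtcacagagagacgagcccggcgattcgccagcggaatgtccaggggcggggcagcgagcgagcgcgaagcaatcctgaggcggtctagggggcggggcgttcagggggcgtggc
IDH3B: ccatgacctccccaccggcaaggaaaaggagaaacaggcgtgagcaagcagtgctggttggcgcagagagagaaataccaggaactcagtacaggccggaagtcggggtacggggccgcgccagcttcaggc

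Across the 9 windows of 250 bases, with IDH1 having a pair of annotated starts, TGACNNNGC was present on either strand in 2, against 10.9% of 35116 RefSeq windows of the same length. The IDH1 match, TGACTCCGC, lies 143 to 135 bases before the start, and the other, TGACGTGGC, lies 171 to 163 bases before the start of IDH3G. TGATGNAA, the C/EBP-ATF composite element, had no match in these windows and occurred in 3.14% of all windows. CACGTG, the E-box, and TCACNCCAC, an SREBP element, also had no match, against 6.35% and 0.883% of all windows. A match is only a run of letters, and the windows of these genes held few. IDH1, which rose, and IDH3G, which fell, carried the same kind of match, and any part of it in either change was not tested.

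Treated cells had more transcripts of both NADPH-linked isocitrate dehydrogenases and fewer of all 3 subunits of the NAD-linked enzyme. IDH1 was 2.28-fold and IDH2 1.35-fold higher, while IDH3B, IDH3G and IDH3A were 41.4%, 33.0% and 22.7% lower. D2HGDH, OGDH and DLST were lower as well, and GLUD1 did not pass the test. Tested with edgeR (quasi-likelihood, p-values adjusted by Benjamini-Hochberg over 12339 genes), 2 members rose, 6 fell and 1 did not pass an adjusted p of 0.05. Of all tested genes, 66.4% passed in either direction, 33.8% as higher and 32.7% as lower, so a call as such was common in these cells. The CPM values of 8 members did not overlap between the groups, as for 70.0% of all tested genes. The median log2 fold change was -0.29 over the members and 0.01 over all tested genes, and the median absolute change was 0.43 against 0.33. In such bulk libraries, fewer cells of a kind and less RNA per cell cannot be told apart.

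**Figure D1:**
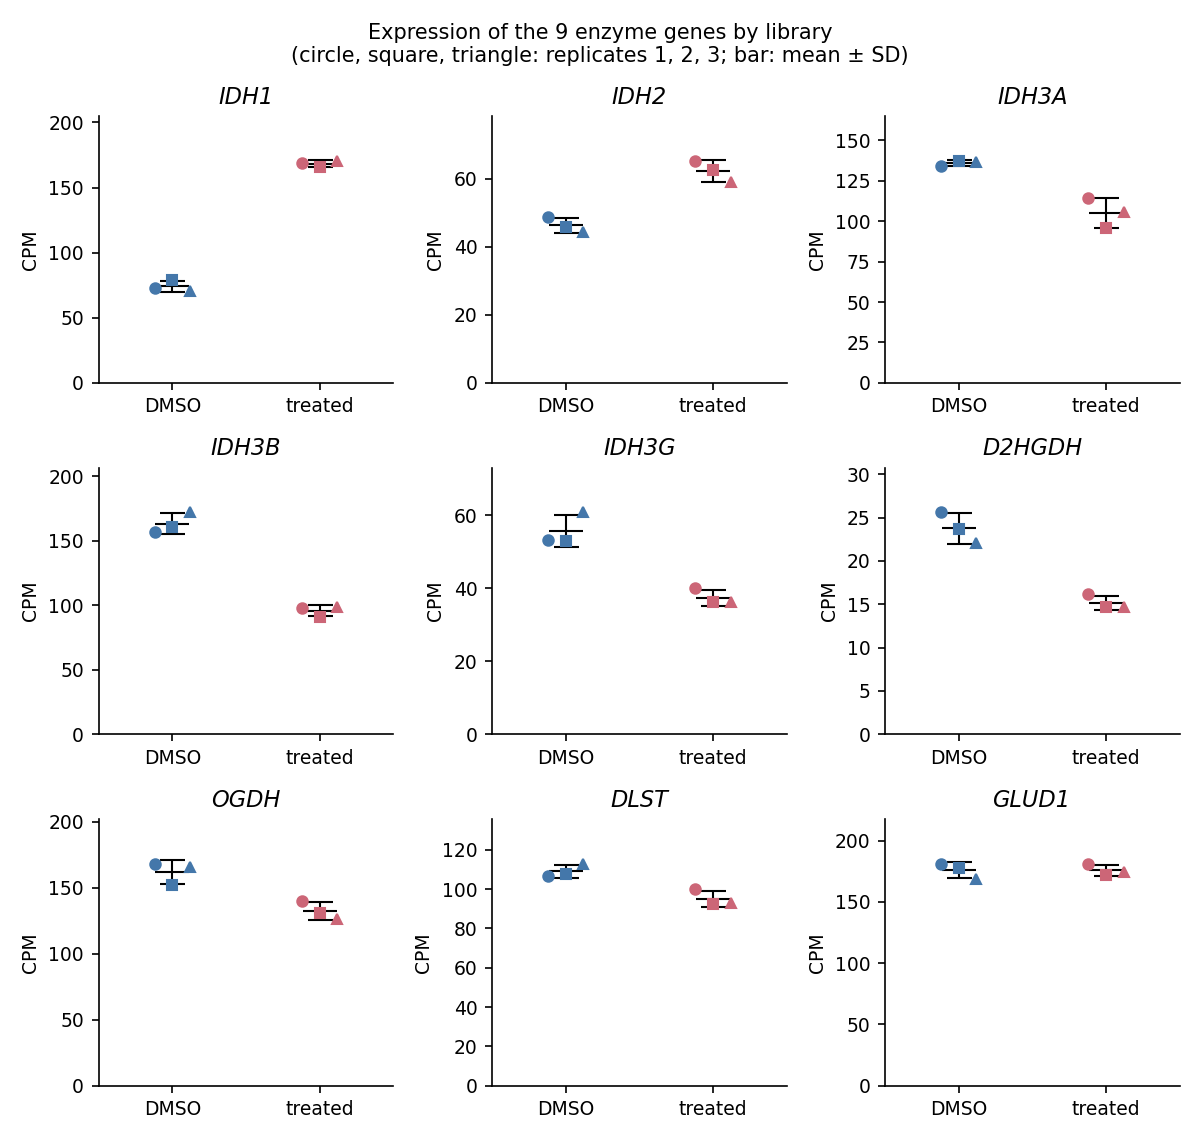
Expression of the 9 genes in CPM (vertical axes, each from 0) in 3 DMSO and 3 treated libraries, with replicates as shapes and mean ± SD as bars. The points of the groups are apart for every gene except GLUD1, with IDH1 and IDH2 higher and the others lower in treated cells.

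Among the NADPH-linked enzymes, IDH1, which supplies cytosolic and peroxisomal 2-oxoglutarate, had 73.0, 79.0 and 70.5 CPM in DMSO replicates 1, 2 and 3 and 169, 166 and 171 CPM in the treated ones. Every treated library lay far above every DMSO library, and the spread within a group was small beside the gap. The mean rose from 74.1 ± 4.38 to 168 ± 2.64 CPM (SD, n = 3 per group), a log2 fold change of 1.19 (SE 0.05, edgeR adjusted p = 1.48e-18). This was the largest absolute change of the 9 genes, and 8.11% of all tested genes had a log2 fold change at least as high. IDH1-AS1, an antisense RNA whose RefSeq start lies 162 bases from that of IDH1 on the opposite strand, had only 0.294 ± 0.232 CPM in control cells and 0.509 ± 0.296 CPM in treated cells and did not pass the filter.

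IDH2, the mitochondrial enzyme of the pair, had 48.9, 45.8 and 44.4 CPM with DMSO and 65.4, 62.7 and 59.0 CPM in treated cells. Here too the groups did not overlap, although the step was smaller. The mean rose from 46.4 ± 2.29 to 62.4 ± 3.21 CPM, a log2 fold change of 0.43 (SE 0.06, edgeR adjusted p = 4.87e-07). A log2 fold change at least this high was found in 23.6% of all tested genes.

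Whether IDH1 and IDH2 moved by the same amount was asked with the ratio of their raw counts inside each library, which no scaling between libraries can alter. A count ratio also carries the lengths of the genes, so only its change is compared. IDH1 had 1.49, 1.72 and 1.59 counts for each IDH2 count in DMSO and 2.59, 2.64 and 2.89 in treated cells. The ratio thus moved toward IDH1 in every treated library. Its log2 mean was 0.76 higher in treated cells (two-sided exact permutation test, p = 0.1, adjusted p = 0.125 over 5 ratios). With 3 libraries against 3 this test cannot go below 0.1, so none of these ratios could pass 0.05.

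The NAD-linked enzyme works as one assembly, with the catalytic alpha subunit from IDH3A and the subunits beta and gamma from IDH3B and IDH3G. IDH3B had 157, 161 and 172 CPM under DMSO and 97.6, 90.9 and 99.0 CPM in treated cells. All treated libraries were below all DMSO libraries. The mean fell from 163 ± 8.11 to 95.8 ± 4.31 CPM, a log2 fold change of -0.77 (SE 0.05, edgeR adjusted p = 2.89e-14), the largest fall of the 9 genes. Only 4.85% of all tested genes had a log2 fold change as low or lower.

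IDH3G had 53.3, 53.0 and 60.8 CPM in control cells and 40.0, 36.1 and 36.2 CPM in treated cells. DMSO replicate 3 was the highest library and treated replicate 1 the highest of its group, and the groups stayed apart. The log2 fold change was -0.58 (SE 0.07, edgeR adjusted p = 1.66e-08). SSR4, a gene of protein translocation into the endoplasmic reticulum, starts 74 bases away on the opposite strand in RefSeq. It fell from 110.4 ± 1.68 to 99.0 ± 1.76 CPM (log2 fold change -0.16, edgeR adjusted p = 0.00338), a call lost with library totals (adjusted p = 0.199). The 278 exonic bases that both genes share make up 10.2% of the IDH3G exons, and reads there cannot be assigned without a stated strand setting.

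IDH3A, the catalytic subunit, had 134, 137 and 137 CPM with DMSO and 114, 95.7 and 106 CPM in treated cells. The DMSO libraries were tight, the treated ones were spread more widely, and the groups did not overlap. The mean fell from 136 ± 1.74 to 105 ± 9.34 CPM, a log2 fold change of -0.37 (SE 0.05, edgeR adjusted p = 3.38e-07). ACSBG1, on the opposite strand, shares 38.2% of the exonic bases annotated for IDH3A, but it had only 0.510 ± 0.381 CPM under DMSO and 0.131 ± 0.121 CPM in treated cells.

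The count ratios between the 3 subunits also differed between the groups, as the unlike falls of the single genes imply. For each IDH3B count there were 0.857, 0.853 and 0.794 counts of IDH3A in DMSO and 1.17, 1.05 and 1.07 in treated cells. This ratio was higher in every treated library, by 0.40 on the log2 scale. The ratio of IDH3A to IDH3G counts was 2.45 ± 0.181 in DMSO and 2.81 ± 0.143 in treated cells (SD, n = 3 per group), and that of IDH3B to IDH3G counts was 2.94 ± 0.103 and 2.56 ± 0.150. Neither overlapped between the groups, and each of the 3 subunit ratios gave the smallest p that the exact permutation test allows, 0.1 (adjusted p = 0.125). How often ratios of other gene pairs separate was not computed, here or for IDH1 and IDH2. Of all tested genes taken singly, 70.0% did not overlap between the groups.

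**Figure D2:**
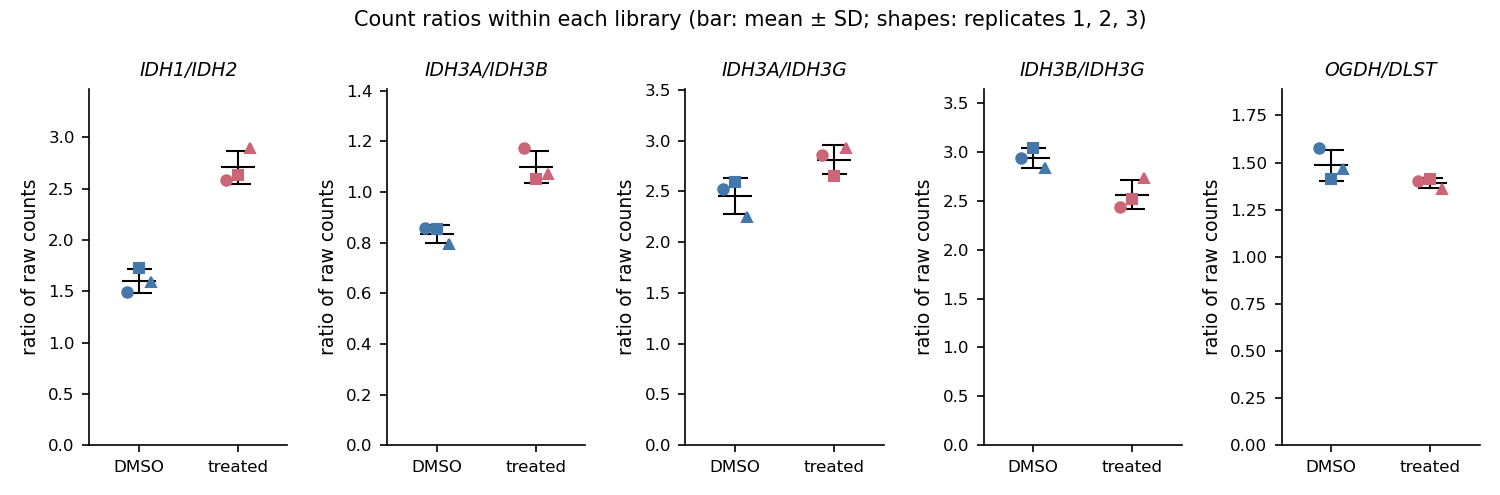
Ratios of raw counts of 2 genes inside each library (vertical axes, each from 0) for 3 DMSO and 3 treated libraries, with mean ± SD as bars. IDH1/IDH2 and IDH3A/IDH3B were higher in every treated library, whereas OGDH/DLST overlapped between the groups.

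OGDH encodes the decarboxylating component of the 2-oxoglutarate dehydrogenase complex. It had 168, 152 and 166 CPM in control cells and 140.0, 131 and 126 CPM in treated cells, without overlap. The log2 fold change was -0.29 (SE 0.05, edgeR adjusted p = 4.07e-06). DLST, the succinyltransferase of the same complex, had 107, 107 and 113 CPM with DMSO and 99.9, 92.6 and 92.7 CPM in treated cells. Its groups also stayed apart, by a narrower gap, with a log2 fold change of -0.20 (SE 0.05, edgeR adjusted p = 0.000651). Against a minimum fold change of 1.2, neither OGDH (edgeR adjusted p = 0.221) nor DLST (0.965) passed, while the other 6 called members and 38.6% of all tested genes did.

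For each DLST count there were 1.58, 1.41 and 1.47 OGDH counts in DMSO and 1.40, 1.41 and 1.36 in treated cells. The groups overlapped only in that treated replicate 2 (1.41285) lay just above DMSO replicate 2 (1.41262), and the other treated libraries lay below every DMSO library. The log2 mean of the ratio was -0.09 relative to DMSO (two-sided exact permutation test, p = 0.2, adjusted p = 0.2), which does not show that the ratio stayed the same. DLD, the component shared by this complex and pyruvate dehydrogenase, had 377 ± 11.6 CPM under DMSO and 369 ± 4.60 CPM in treated cells (log2 fold change -0.03, edgeR adjusted p = 0.472), and 0.06 with library totals (adjusted p = 0.119). OGDHL, the paralog of OGDH, was scarce, at 1.09 ± 0.0862 CPM in control cells and 1.96 ± 0.0866 CPM in treated cells (log2 fold change 0.84, edgeR adjusted p = 0.0210). That call was lost when either group's replicate 3 was left out (adjusted p = 0.0678 for DMSO and 0.0611 for treated).

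D2HGDH, which clears D-2-hydroxyglutarate, was the least abundant member, in CPM and per length. It had 25.6, 23.7 and 22.1 CPM with DMSO and 16.1, 14.7 and 14.7 CPM in treated cells. The groups did not overlap, and the mean fell from 23.8 ± 1.79 to 15.2 ± 0.832 CPM, a log2 fold change of -0.65 (SE 0.09, edgeR adjusted p = 6.26e-07). Its counts, between 308 and 486 per library, carry a counting error of 4.54% to 5.70%, larger than for the other members. ADHFE1, which can form 2-hydroxyglutarate, had 0.0641 ± 0.0684 CPM in control cells and 0.130 ± 0.0307 CPM in treated cells, below 3 counts per library (0.136 to 0.168 CPM) on average.

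GLUD1, which interconverts glutamate and 2-oxoglutarate in mitochondria, had 181, 178 and 168 CPM with DMSO and 181, 172 and 174 CPM in treated cells. The groups overlapped, with means of 176 ± 6.60 and 176 ± 4.46 CPM. Its log2 fold change was 0.00 with a 95% interval from -0.08 to 0.08 (edgeR adjusted p = 0.999). With libraries scaled by total counts instead it was 0.09 higher in treated cells (adjusted p = 0.0481). With that scaling 3 members rose and 6 fell, 66.8% of all tested genes passed, and over all genes 5059 rose and 3185 fell, in place of 4167 and 4031. The median log2 fold change of all tested genes was then 0.10.

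GLUD1 has near-identical copies, so its values are uncertain. GLUD2, an intronless copy, had 11.8 ± 0.756 CPM under DMSO and 9.48 ± 0.275 CPM in treated cells (log2 fold change -0.32, edgeR adjusted p = 0.0226). The GLUD2 call was lost with library totals (adjusted p = 0.105), on leaving out DMSO replicate 2 (0.0829) and on leaving out treated replicate 3 (0.0678). The opposite-strand gene FAM35A, now SHLD2, shares 13.2% of the exonic bases of GLUD1 and fell by 0.62 on the log2 scale. How reads in the shared bases were treated is not given in the sources used here.

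**Figure D3:**
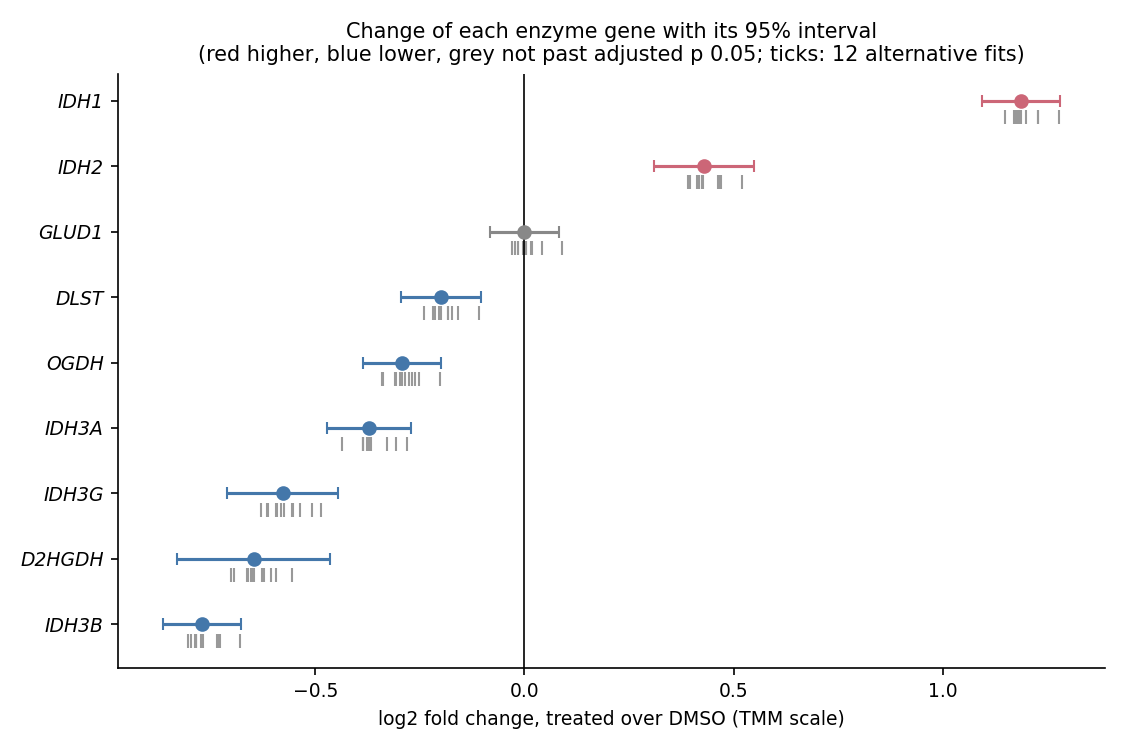
Log2 fold change of each gene, treated over DMSO (horizontal axis), with its 95% interval, and grey ticks for 12 alternative fits. IDH1 (1.19) and IDH2 (0.43) lie above 0 and 6 genes below 0 in every fit, while GLUD1 straddles 0.

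Levels of different genes were compared per length, as TPM (counts per kilobase, scaled to the same sum in each library) on the union of annotated exons. In DMSO cells, IDH3B stood highest with 247 ± 11.2 TPM, followed by GLUD1 with 194 ± 8.13, OGDH with 121 ± 6.21 and DLST with 93.1 ± 2.43 TPM. IDH3G (79.5 ± 5.90) and IDH3A (77.3 ± 1.12) overlapped with each other, as did IDH2 (63.9 ± 3.32) and IDH1 (61.0 ± 3.94). D2HGDH was lowest with 17.5 ± 1.37 TPM, apart from all others.

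In treated cells the order was different. GLUD1 came first with 211 ± 4.39 TPM, and IDH3B (158 ± 6.75) and IDH1 (151 ± 2.15) overlapped behind it. TPM were not scaled by TMM, unlike CPM, so they serve for the order within a group and not for changes between groups. GLUD1, for one, had 194 TPM in DMSO and 211 TPM in treated cells, but 176 CPM in both. OGDH followed with 107 ± 5.29 TPM, then IDH2 (93.6 ± 4.55) and DLST (88.3 ± 3.49), which overlapped, then IDH3A (65.1 ± 5.50) and IDH3G (58.2 ± 3.13), which overlapped too. D2HGDH stayed last with 12.1 ± 0.610 TPM. IDH1 thus moved from rank 8 to rank 3. With the longest transcript as the length it moved from rank 7, with 82.7 TPM, to rank 1, with 204 TPM, so the exact order depends on the gene model.

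**Figure D4:**
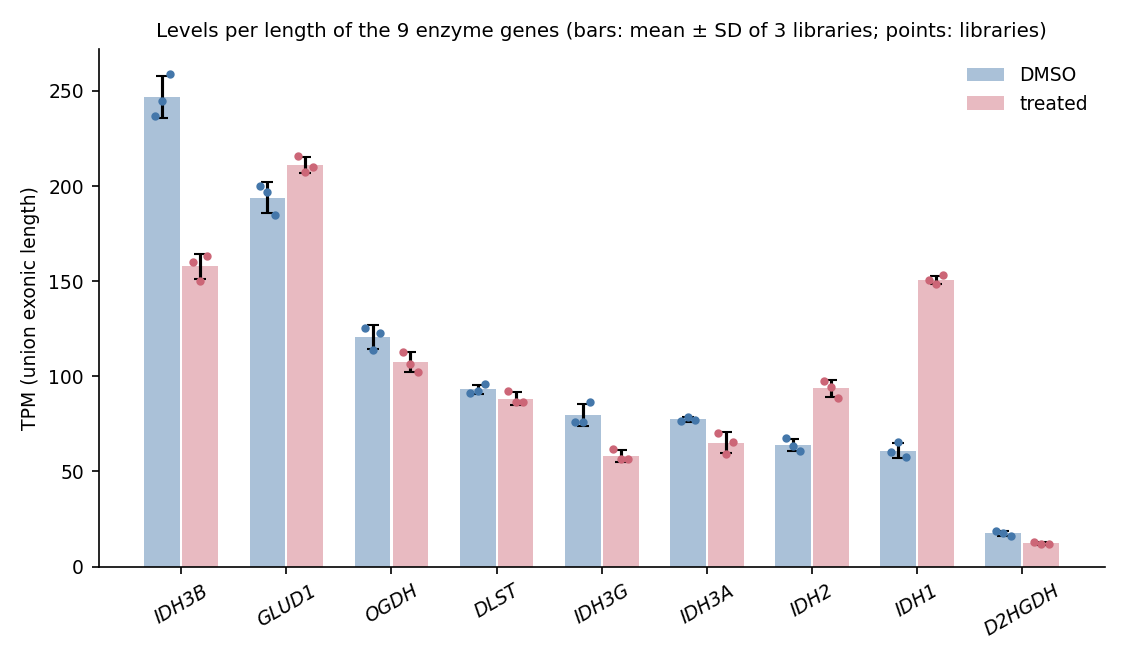
Levels per length in TPM (vertical axis, from 0) of the 9 genes in DMSO and treated cells, with bars as mean ± SD of 3 libraries and points as libraries. IDH1 was among the lowest genes in DMSO (61.0 TPM) and level with IDH3B in treated cells (151 and 158 TPM). TPM were not scaled by TMM.

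Around these enzymes, the other genes of the citric acid cycle were mostly lower. Of 15 tested genes 11 fell, 1 rose and 3 did not pass, with a median log2 fold change of -0.32. The share that passed was 80%, against 66.4% of all tested genes. CS, citrate synthase, fell from 528 ± 3.85 to 394 ± 11.2 CPM (log2 fold change -0.42) and SDHD, a subunit of succinate dehydrogenase, from 202 ± 5.01 to 145 ± 2.10 CPM. OGDHL was the gene that rose. ACO1, MDH1 and DLD did not pass. Against a minimum fold change of 1.2, 6 of the falls passed and no rise did, where 38.6% of all tested genes passed. At that threshold the number of calls in this list was thus near the general share.

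Genes for pyruvate entry and cycle filling were split, with 6 lower, 3 higher and 4 not passing among 13 tested of 14 listed. The share that passed, 69.2%, was near the 66.4% of all tested genes. DLAT and PDHA1, components of pyruvate dehydrogenase, fell by 0.65 and 0.48 on the log2 scale. PCK2, the mitochondrial phosphoenolpyruvate carboxykinase, rose from 42.9 ± 2.83 to 113 ± 5.36 CPM, and ME1, cytosolic malic enzyme, by 0.26. The other riser, PDK3, had under 1 CPM in either group. Its counts were 6, 7 and 8 in DMSO and 16, 11 and 21 in treated libraries. It thus met the minimum count of 10 only in treated cells, with an edgeR adjusted p of 0.0483. With library totals 4 rose and 5 fell, whereas 2 rose and 6 fell with DESeq2, without the low-count filter and with the replicate block.

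Enzymes that exchange 2-oxoglutarate with glutamate changed in both directions, with 8 lower and 4 higher among 13 tested of 16 listed (6 and 4 with library totals). The share that passed was 92.3%, against 66.4% of all tested genes. GPT2, a mitochondrial alanine transaminase, rose from 9.31 ± 0.878 to 56.4 ± 1.49 CPM. PSAT1, which yields 2-oxoglutarate during serine synthesis, rose from 122 ± 6.73 to 458 ± 6.25 CPM. OAT, ornithine aminotransferase, fell from 288 ± 9.70 to 122 ± 6.27 CPM, and GOT2, the mitochondrial aspartate transaminase, from 345 ± 5.61 to 204 ± 11.6 CPM. GOT1, the cytosolic aspartate transaminase, went the other way, from 113 ± 2.63 to 241 ± 12.2 CPM.

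Genes tied to hydroxyglutarate and oxoadipate numbered 7, of which 5 were tested, with 2 higher and 2 lower. That is a share of 80%, against 66.4% of all tested genes. PHGDH, the serine synthesis enzyme that can also reduce 2-oxoglutarate to 2-hydroxyglutarate, rose by 3.37 on the log2 scale. DHTKD1, a relative of OGDH that acts on 2-oxoadipate, rose from 21.7 ± 0.784 to 28.1 ± 1.76 CPM, whereas OGDH itself fell. The lactate dehydrogenases LDHA and LDHB fell by 0.60 and 0.54.

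Carriers of these metabolites changed in all 9 tested cases of 10 listed, and in 8 with library totals. Of all tested genes, 66.4% passed, and 66.8% with library totals. The 7 that fell were mitochondrial, among them SLC25A1, the citrate carrier, by 0.65 on the log2 scale, and SLC25A21, the oxodicarboxylate carrier, by 0.85. The 2 that rose, SLC38A2 (by 1.01) and SLC1A5 (by 0.36), carry neutral amino acids across the plasma membrane.

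Genes listed here as other makers of NADPH, the product that IDH1 and IDH2 share, went mostly upward. Among 9 tested of 11 listed, 6 were higher, 2 lower and 1 did not pass. The share that passed was 88.9%, against 66.4% of all tested genes. The cofactor that each enzyme uses in these cells, MTHFD2 included, was not measured. ALDH1L2, a mitochondrial folate enzyme, rose from 9.10 ± 0.122 to 88.7 ± 3.84 CPM, and MTHFD2 from 243 ± 4.88 to 449 ± 16.6 CPM. MTHFD1, its cytosolic relative, fell by 0.53, and NNT, the mitochondrial transhydrogenase, by 0.20. The median log2 fold change of this list was 0.26, against -0.29 for the 9 enzymes and 0.01 for all tested genes. Counted once each, 63 genes of the 6 lists were tested, of which 36 fell and 17 rose, and the share that passed, 84.1%, stood beside 66.4% of all tested genes. The share over all genes depends on level: with the filter at a mean of 5 CPM it was 71%. In that setting 33 genes of the lists fell and 15 rose.

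**Figure D5:**
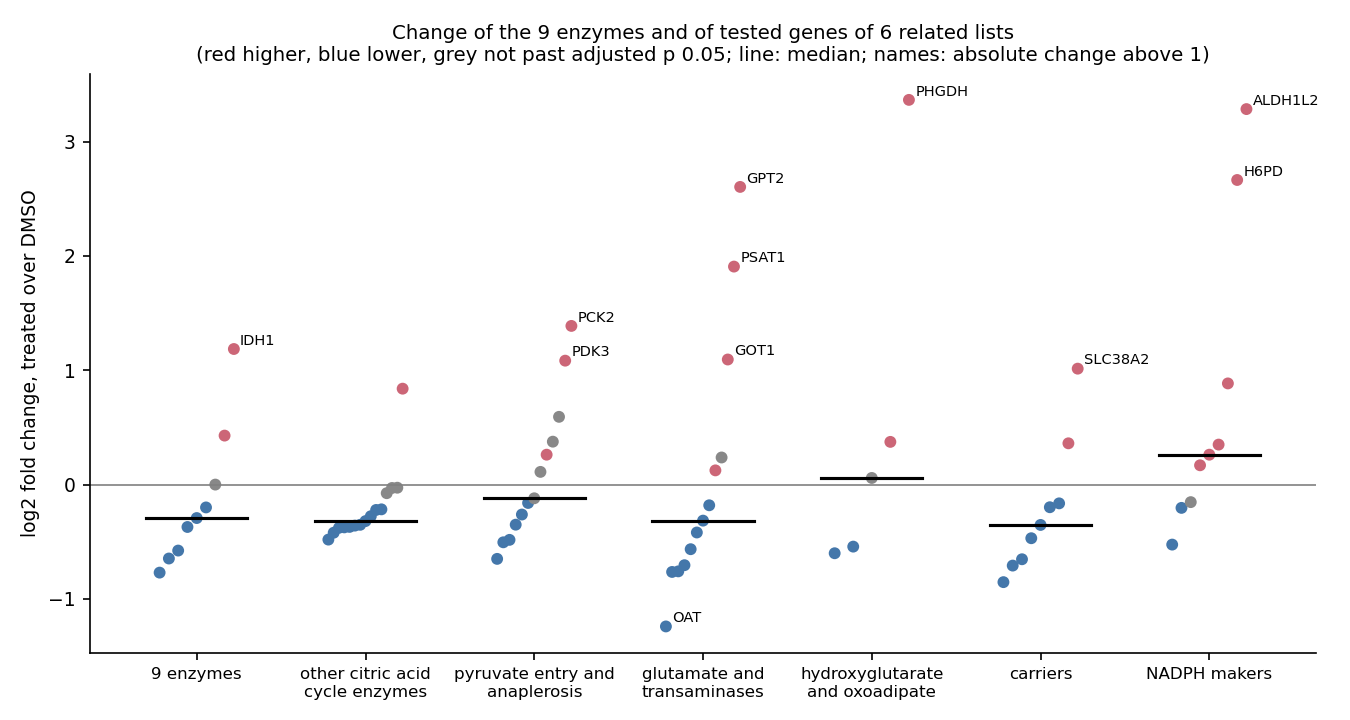
Log2 fold change, treated over DMSO (vertical axis), of the 9 enzymes and of the tested genes of 6 related lists, with lines at the medians and names for absolute changes above 1. The medians are -0.29 for the 9 enzymes, -0.32 for the other citric acid cycle enzymes and 0.26 for the genes listed as NADPH makers.

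The genes whose log2 CPM ran most like that of IDH1 over the 6 libraries were ASCC1, MAP1B and NR2F2. ASCC1 rose by 0.69, MAP1B by 1.65 and NR2F2 by 0.57 on the log2 scale. Each had a Pearson r of at least 0.999, but 341 of 10811 genes with at least 2 CPM had an r over 0.99. For IDH3B, the member with the next largest change, FBXW5, TALDO1 and GTF2F2 were most alike, and 425 genes had an r over 0.99. With 2 groups of 3 libraries, such an r is set mainly by the step between the groups.

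In the authors' deposited table, which compares a group B with a group A that its header does not name, the fold of B over A was 2.25 for IDH1 and 1.33 for IDH2. That table lists 0.766 for IDH3A, 0.581 for IDH3B, 0.665 for IDH3G and 0.632 for D2HGDH, as the authors' deposited values. It gives OGDH 0.809, DLST 0.863 and GLUD1 0.990, the last with an adjusted p-value of 0.967 in the authors' deposited table.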

How the data were processed

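Raw counts by gene symbol, deposited by the authors for each of the 6 K562 libraries (3 per group), were taken unchanged. The submitters' processing notes name STAR, Cufflinks, DESeq2 and hg19 without roles. How reads were counted, with which strand setting and on which annotation, is not given in the sources used here. A deposited table holds the authors' fold ratio and adjusted p-value for group B against group A, per the file headers.

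The 5 totals of unassigned reads were left out of library sizes. The total labelled ambiguous held between 2.27% and 2.38% of each library, and its split by gene is not known. Genes were tested with edgeR 4.0.16 in R 4.3.3 (quasi-likelihood, TMM, filterByExpr with a minimum count of 10, treatment as the only term, two-sided, Benjamini-Hochberg over 12339 genes), a procedure tested on simulated data. CPM, given as mean ± SD, divide counts by TMM-scaled library sizes, per 1000000. TPM used exon lengths from GENCODE on GRCh38, matched for 22258 of 23710 symbols, 1056 of them by an older symbol. Alternatives were library totals, DESeq2 size factors, DESeq2 1.42.0, other filters, a minimum fold change of 1.2, a replicate block and leaving out each library. Replicate pairs differed beyond counting noise (chi-square per degree of freedom 2.38 to 6.22). Named genes were all members, fixed partners, and from each list the 2 changed genes per direction with the smallest p. PDK3, ACO1, MDH1 and GOT1 were named after their values were seen, as were the genes found by position (IDH1-AS1, SSR4, ACSBG1 and FAM35A). One of the fixed partners is not reported here. The members and lists were chosen with earlier results of these data known.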

Additional observations from a re-analysis of the deposited data

How the results depend on the processing

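The 8 called members kept their direction and their call with library totals, with DESeq2 size factors, with DESeq2, with either other filter, with the replicate block and without each library in turn; against a minimum fold change of 1.2, OGDH and DLST were lost and 6 stayed. Over all alternatives the log2 fold change of IDH1 ranged from 1.15 to 1.28, that of IDH2 from 0.39 to 0.52, and that of IDH3B from -0.80 to -0.68. No shared deviation of same-numbered libraries was seen: their deviations correlated at -0.02, 0.01 and -0.04. Such values cannot show whether the libraries were paired by design. With the replicate block 2 members rose and 6 fell, and 4091 genes rose and 3959 fell over all.

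GLUD1, never far from 0, changed sign: 0.0908 with library totals, 0.0419 with the filter at a mean of 5 CPM, 2.04e-05 with the replicate block, and from -0.0310 (without DMSO replicate 3) to 0.0181 (without DMSO replicate 1) when single libraries were left out. DLD turned to 0.0613 with library totals and 0.0124 with the filter at 5 CPM. Against a minimum fold change of 1.2, 11 of the other pathway genes rose and 22 fell, in place of 17 and 36, because small changes then no longer count. Of all tested genes, 38.6% passed at that threshold. The 5 count ratios kept the direction of their mean difference without each library in turn. Between same-numbered libraries every ratio kept its direction except OGDH to DLST in replicate 2 (1.41262 in DMSO and 1.41285 in treated cells).

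IDH1, IDH3A, IDH3G, D2HGDH and GLUD1 share exonic bases with opposite-strand genes, which limits them beyond depth; of the partners measured here, SSR4 (beside IDH3G) and FAM35A (beside GLUD1) had the highest levels. Over the members, counting error was between 1.62% and 5.70%.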
